A study of Danio rerio with 36 samples.

Results

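Chromosome 17 of the zebrafish was examined in windows of 1 kb in sperm of G4 males. A window entered when at least 5 of its CpG dinucleotides had a methylation value in all 6 males, and its level is the mean percentage of methylated reads over these CpGs. Such windows numbered 30111 on chromosome 17, of 763308 on all 25 chromosomes. The males were split into a trio of G4* males 1 and 3 with G4+ male 1, here trio A, and a trio of G4* male 2 with G4+ males 2 and 3, here trio B. Each trio thus holds males of both phenotypes, and the split was chosen because levels of these same males differ along it on this chromosome. It is therefore given as a description, without a test. Windows are called apart where all males of trio A lie on one side of all males of trio B and the trio means differ by at least 20 percentage points. Differences are trio A minus trio B throughout.

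The study followed a viable, hypomorphic missense allele of dnmt1 through generations by whole genome bisulfite sequencing. There were 18 fish, 3 in each of 6 groups, of mixed background. The G4* and G4+ groups are sperm of males that are genotypically wild type for dnmt1 and descend from a dnmt1m/m male. G4* males (transmitting, in the labels) gave offspring with poor T cell development as larvae, and G4+ males (non-transmitting) gave normal offspring. The other groups are sperm of dnmt1m/m and dnmt1+/+ males of the G2 generation, which the labels call generation 1, and whole bodies of dnmt1m/m and dnmt1+/+ fish at 18 dpf. The labels write the mutant genotype as dnmt1-/-, although the allele keeps some function. Which of the outcrossed pedigrees each male came from, and whether any of them were siblings, is not given in the sources used here. Whole bodies mix all cell types.

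In vertebrates, most cytosines of CpG dinucleotides are methylated, and unmethylated stretches lie mainly at CpG-rich promoters and enhancers. Dnmt1 copies the pattern onto the new strand after replication, so that a methylation state can pass through cell divisions. Zebrafish sperm is highly methylated, and the early embryo takes over a pattern close to that of sperm. A level near the middle of the scale means that methylated and unmethylated reads were mixed in a window, and the values used here do not tell how they were divided between cells or between chromosome copies. A thymine in place of a cytosine in the animal's own DNA is also read as an unmethylated cytosine unless the position is recognised as a variant and removed.

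Of 23946533 listed CpGs, between 9843901 and 15873738 had a value in a fish, and on chromosome 17 between 386993 and 629758 of 940587. All 6 males had a value at 371583 CpGs of chromosome 17 in G4 sperm, all 6 fish at 284254 in G2 sperm and at 183090 in whole body. Windows were formed separately from these CpGs in each data set. The levels of a window in G4 sperm, G2 sperm and whole body can therefore rest on different CpGs. The read number behind each value is unknown, so no counting interval can be given.

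On chromosome 17 the trios were apart in 438 windows, or 1.45%, against 0.117% over the whole genome. Trio A was lower in 383 of them and higher in 55, so that 87.4% were lower. The backgrounds are 0.0765% of all windows lower and 0.0407% higher. On the other 24 chromosomes together, 201 windows were lower and 256 higher. Chromosome 17 holds 3.94% of the windows of the genome, 65.6% of those lower in trio A and 17.7% of those higher. Chromosome 2 came next, with 0.473% of its windows apart (69 lower and 89 higher), then chromosome 25 with 0.216% (14 lower and 35 higher), and the median of the other 24 chromosomes was 0.0247%. Lower windows thus outnumbered higher ones on chromosome 17, whereas higher ones were the more numerous on chromosomes 2 and 25. The direction varied among the other chromosomes, with more lower windows on chromosome 1 (23 lower and 10 higher) and chromosome 8 (16 lower and 2 higher), for example.

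**Figure D1:**
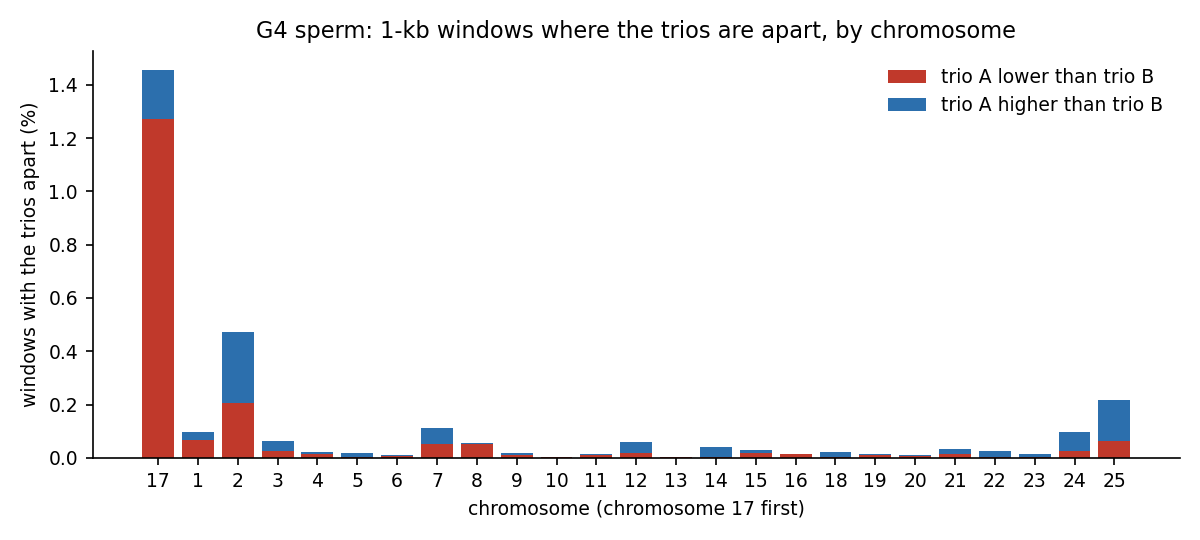
Percentage of 1-kb windows in which the trios were apart in G4 sperm, for chromosome 17 at the left and then the other 24 chromosomes, with windows lower in trio A in red and higher in blue. Chromosome 17 reaches 1.45% and chromosome 2, the next, 0.473%.

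The same shift appeared in the level of the whole chromosome. The mean over its 30111 windows was 91.2% in G4* male 1, 91.5% in G4* male 3 and 91.4% in G4+ male 1, the males of trio A. It was 92.5% in G4* male 2, 92.5% in G4+ male 2 and 92.4% in G4+ male 3, the males of trio B. The trios do not overlap here, whereas over the other 24 chromosomes together all 6 males lay between 91.8% and 92.0%. A mean over many chromosomes evens out differences on single ones. On chromosome 1 alone the males ran from 90.4% to 91.8%. On chromosome 6 the G4* males (91.0%, 91.0% and 91.4%) lay below the G4+ males (92.4%, 92.5% and 92.2%). A spread of this size between males is thus not particular to chromosome 17. The mean difference was −1.15 percentage points on chromosome 17, and between −0.49 and 0.256 on the other chromosomes. Counting every window whose trios do not overlap, whatever the size, 12.3% of chromosome 17 was lower in trio A and 5.15% higher, against 5.04% lower and 4.67% higher over the genome.

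Pairs of males were compared to describe how far single animals follow the split. Of chromosome 17 windows, between 1.64% and 2.39% differed by at least 20 percentage points in the 9 pairs that join a male of trio A to a male of trio B. In the 6 pairs within a trio, 0.282% to 0.983% differed by as much. On the other chromosomes these shares were 0.668% to 0.956% between trios and 0.789% to 1.02% within a trio. Of the 9 pairs between trios, 9 differed in more windows on chromosome 17 than elsewhere. Of the 6 pairs within a trio, 5 differed in fewer, the exception being G4* males 1 and 3 (0.983% and 0.791%). The split was chosen on the levels of these same males on chromosome 17. The contrast between the 2 kinds of pairs there thus follows from the choice and tests nothing. The pairs within trio B were the closest, at 0.282% to 0.408%, and those within trio A lay at 0.8% to 0.983%. Differences among the 6 males of at least 20 percentage points occurred in 1237 windows (4.11% of chromosome 17, against 2.82% over the genome). This share was higher still on chromosomes 6 (4.48%) and 1 (4.37%). Of the 1237 windows, 35.4% were apart between the trios, against 2.25% of such windows on the other chromosomes, counted along the same split. The remaining 799 windows varied without being apart. They can include windows in which the trios do not overlap but their means differ by under 20 percentage points.

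**Figure D2:**
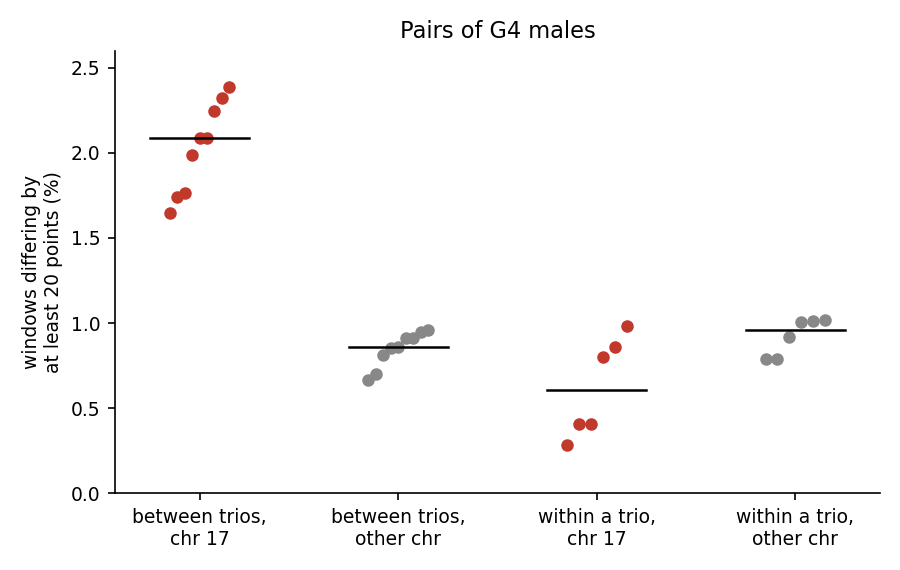
Percentage of 1-kb windows that differ by at least 20 percentage points between 2 G4 males, with each point 1 pair and the line the median. On chromosome 17 the 9 pairs between trios lie at 1.64% or above and the 6 pairs within a trio at 0.983% or below. Both kinds lie between 0.668% and 1.02% on the other chromosomes. The split was chosen on the chromosome 17 levels of these same males.

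Windows lower in trio A mostly went along with nearly full methylation in trio B. The median window was at 62.8% in trio A and 95.6% in trio B, and the median difference was −28.3 percentage points, with a range from −97.2 to −20.02. By male, the medians were 58.6% in G4* male 1, 63.8% in G4* male 3 and 60.9% in G4+ male 1 of trio A, and 95.6% in G4* male 2, 96.2% in G4+ male 2 and 95.7% in G4+ male 3 of trio B. In 258 of the 383 windows trio B averaged at least 90%. Trio A lay at 40% to 75% in 216 of those 258 and at 25% or less in only 9, so that a full switch from one end of the scale to the other was rare. A difference of at least 50 percentage points was found in 29 windows. The males of trio A differed among themselves by a median of 14.0 percentage points in these windows, and those of trio B by 3.69.

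The 55 windows higher in trio A showed the mirror image. The median window was at 90.1% in trio A and 53.9% in trio B, with a median difference of 31.5 percentage points and a range from 20.7 to 78.9. Trio A averaged at least 90% in 28 of them, and trio B lay at 40% to 75% in 24 of those 28. Here the males of trio A differed by a median of 4.33 percentage points and those of trio B by 9.25. In both directions the trio with the lower level was thus the more variable one. The window just inside the limit of 20 points averaged 71.3% in trio A and 91.3% in trio B, and the one just outside 78.3% in trio A and 98.3% in trio B. There were 62 windows between 20 and 22 points and 78 between 18 and 20.

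In bins of 1 Mb, the windows apart were spread over nearly the whole chromosome. Of 54 bins, 43 held at least 5 such windows, 7 of them with exactly 5, and 3 bins had 4. The median bin held 7. Only the bin from 16 to 17 Mb had none, and the other 53 exceeded the genome's percentage. The mean difference was negative in all 54 bins, between −2.33 and −0.334 percentage points. Adjacent bins with at least 5 windows formed long segments from 19 to 29 Mb (98 windows, 93 of them lower), from 30 to 47 Mb (186 windows, 152 lower) and from 48 to 54 Mb (54 windows, 49 lower). The bin from 27 to 28 Mb held the largest number, 17 of 582 windows, all of them lower, and that from 45 to 46 Mb the largest share, 3.38%.

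Windows higher in trio A were fewer, 55 against 383 lower ones, which by itself leaves more bins empty. Of the 54 bins, 26 had none. The stretch from 36 to 52 Mb was chosen after the bins were seen, for its many CpGs with a value missing in one trio only. It held 36 of the 55 among 8151 windows, whereas the remaining 21960 windows of the chromosome held 19. Windows lower in trio A numbered 139 in this stretch and 244 outside it, or 1.71% and 1.11% of the windows. That values were missing more often in one trio only in this stretch follows from its choice. CpGs with a value in all males of one trio and in none of the other made up 640 per 10000 in the stretch from 36 to 52 Mb and 115 per 10000 in the rest of the chromosome. For all of chromosome 17 the number was 282 per 10000 (26519 CpGs), against 56.0 per 10000 on the other chromosomes, where single chromosomes lay between 27.0 and 187. The highest of these were chromosomes 2 (187), 25 (85.6) and 7 (81.1). The same chromosomes came next after chromosome 17 in the share of windows apart, with 0.473%, 0.216% and 0.114%. Split by phenotype, the CpGs missing in all G4* or in all G4+ males only were 48.8 per 10000 on chromosome 17 and 76.1 on the others.

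**Figure D3:**
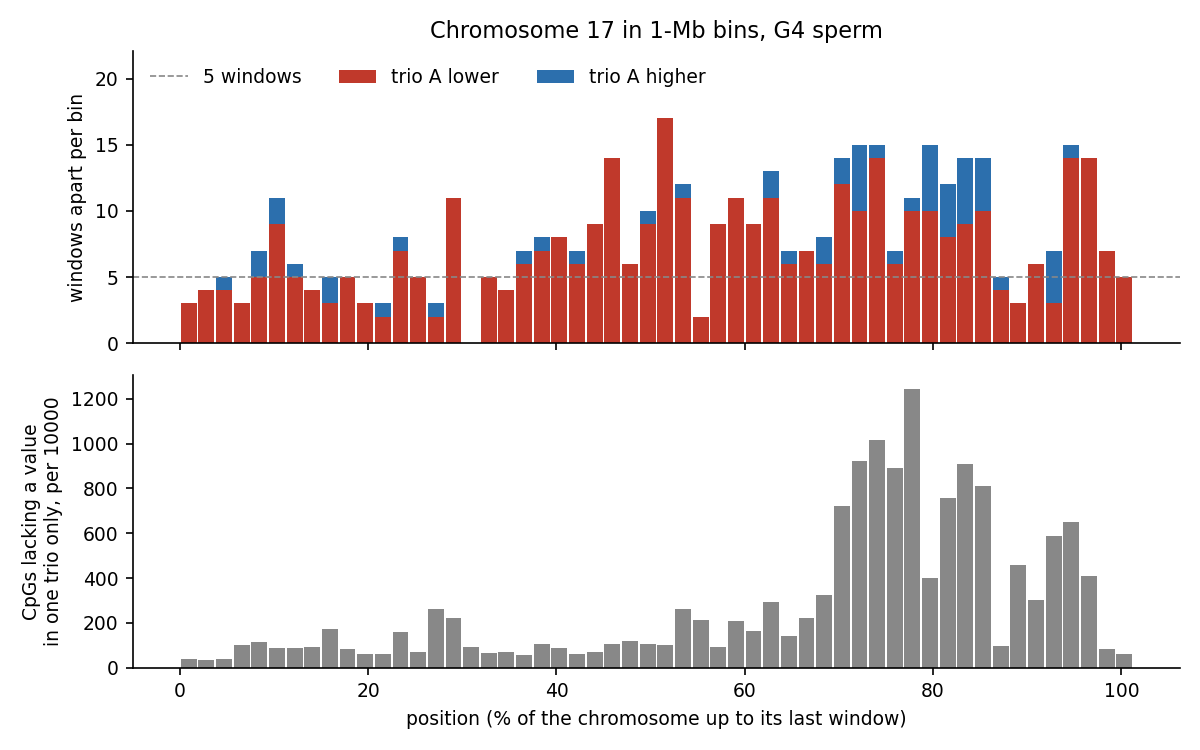
Chromosome 17 in 54 bins of 1 Mb, placed by the percentage of the chromosome up to its last window (the last bin is partial). The upper panel gives the number of windows lower (red) and higher (blue) in trio A with a dashed line at 5, and the lower panel the CpGs per 10000 that lack a value in one trio only, which reach 1242 in the bin from 41 to 42 Mb.

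A missing value stands for low coverage or for a variant position removed by the authors, and these cannot be told apart here. At least 1 CpG missing in one trio only lay in 31.1% of the windows lower in trio A, in 45.5% of those higher and in 23.4% of the other windows of chromosome 17. Without the 7087 of 30111 windows holding such a CpG, 264 lower and 30 higher windows remained. The other chromosomes were not counted in this way. The part of sequence variants in the differences of level was not tested.

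Most windows apart stood alone. The 438 windows formed 389 runs of adjacent windows, of which 46 had at least 2 windows and none had more than 3. No run joined both directions. The 3 longest each had 3 windows lower in trio A. In 2 of these runs all windows were assigned to 1 gene, zfp36l1a (an RNA-binding protein that promotes decay of mRNAs) or dph6 (an enzyme that modifies elongation factor 2). In the other run the first window was assigned to chrna2a (a subunit of nicotinic acetylcholine receptors) and the next 2 to ptk2ba (a tyrosine kinase of the focal adhesion kinase family). Near zfp36l1a (chr17:37851000-37853999 of danRer10) the window in the middle had 42.9% in G4* male 1, 48.4% in G4* male 3 and 51.98% in G4+ male 1, against 97.4% in G4* male 2, 98.5% in G4+ male 2 and 99.3% in G4+ male 3. It also held 3 CpGs that lacked a value in one trio only. Its neighbours on both sides differed by −39.7 and −31.2 percentage points.

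The gene of a window is taken from the nearest interval in the authors' tables of differentially methylated regions (DMRs), at most 10 kb away, and need not be the closest gene to the window itself. By this measure, 245 genes were assigned to windows apart. The limit of 10 kb holds between window and interval, and the interval can lie farther from its gene. A window called near a gene is one assigned to it in this way. Of the windows that overlap an interval, the interval lay in a gene in 41 of 110 lower windows (37.3%), in 11 of 18 higher windows (61.1%) and in 7531 of 11862 other windows of chromosome 17 (63.5%). Whether it was an exon or an intron is not given in the tables. The 12 genes with the largest difference in each direction are described next.

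The largest difference of all was seen in a window assigned to nkx2.4a, a homeobox gene of the developing forebrain and thyroid (chr17:42101000-42101999). Its 8 CpGs were at 0.481%, 0% and 0% in G4* male 1, G4* male 3 and G4+ male 1, and at 95.6%, 97.0% and 99.5% in G4* male 2, G4+ male 2 and G4+ male 3. The interval that gives its gene lies 9499 bp from the window and 14872 bp from the gene. In G2 sperm the window was at 0.735%, 0.694% and 29.4% in dnmt1m/m males and at 2.53%, 0.595% and 1.38% in dnmt1+/+ males, close to the level of trio A in 5 of the 6 males (limma, mutant against wild type, adjusted p = 0.319). A further window assigned to nkx2.4a (chr17:42151000-42151999) was at 17.03%, 8.66% and 5.91% in G4* male 1, G4* male 3 and G4+ male 1, and at 94.4%, 94.8% and 95.3% in G4* male 2, G4+ male 2 and G4+ male 3. It held 4 CpGs with missing values in one trio only, the first window none.

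Further windows came close to a full switch. In the window assigned to si:ch73-167o17.1 (chr17:42934000-42934999), trio A had 1.85%, 3.94% and 2.56% in G4* male 1, G4* male 3 and G4+ male 1. Trio B had 97.9%, 99.6% and 96.2% there in G4* male 2, G4+ male 2 and G4+ male 3. Near entpd5a, a phosphohydrolase needed for bone mineralization in zebrafish, trio A averaged 4.58% and trio B 95.4%. Averages were 5.08% in trio A and 95.7% in trio B near peli2, an E3 ubiquitin ligase of Toll-like receptor signalling. Near tmem229b, a gene for a membrane protein, they were 9.54% in trio A and 97.4% in trio B. The window assigned to a 5S_rRNA gene averaged 18.7% in trio A and 97.0% in trio B.

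Other windows of the group started from lower levels in trio B. The window assigned to pomca, the gene for the precursor of ACTH and melanocortins (chr17:33276000-33276999, 15 CpGs), had 6.67%, 7.32% and 7.27% in G4* male 1, G4* male 3 and G4+ male 1, and 61.0%, 67.2% and 59.5% in G4* male 2, G4+ male 2 and G4+ male 3. In G2 sperm it lay between 6.31% and 11.3% in all 6 males, and in whole body between 6.16% and 20.9%. Near ezra, whose product ezrin links the membrane to actin, trio A averaged 7.52% and trio B 65.5%. The males within a trio were less alike near rps6ka1, a kinase of the MAP kinase pathway. There trio A had 35.8%, 41.5% and 0.568% in G4* male 1, G4* male 3 and G4+ male 1, and trio B 98.0%, 97.4% and 63.5% in G4* male 2, G4+ male 2 and G4+ male 3. The other named genes with lower levels in trio A were FO704797.1, tmed8 and si:dkey-166f24.2, with differences of −76.0, −71.1 and −55.5 percentage points.

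Among the windows higher in trio A, the largest difference was found in col12a1a, the gene for a collagen XII chain (chr17:49870000-49870999, 18 CpGs). The levels were 93.2%, 96.4% and 49.4% in G4* male 1, G4* male 3 and G4+ male 1, and 0.463%, 1.15% and 0.93% in G4* male 2, G4+ male 2 and G4+ male 3. In G2 sperm this window was at 72.8%, 85.0% and 77.5% in dnmt1m/m males and at 98.8%, 98.6% and 96.5% in dnmt1+/+ males, and in whole body at 58.9% to 66.2% in dnmt1m/m and 86.0% to 93.9% in dnmt1+/+ fish. The difference of −19.5 percentage points in G2 sperm (limma, adjusted p = 2.57e-05) was just under the size of a call, and the G2 dnmt1+/+ males were all close to the G4* males of trio A. The window held 3 CpGs that lacked a value in one trio only.

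In several other windows of this direction, trio A was nearly fully methylated and trio B stood near the middle of the scale. The window assigned to mbip, a regulator of a MAP kinase kinase kinase, had 95.5%, 98.0% and 98.3% in G4* male 1, G4* male 3 and G4+ male 1, and 51.7%, 49.9% and 46.6% in G4* male 2, G4+ male 2 and G4+ male 3. Near aldh6a1, an enzyme of valine breakdown, trio A averaged 99.0% and trio B 54.8%, and 5 CpGs lacked a value in one trio only. Averages were 97.0% in trio A and 51.9% in trio B near BX950853.1, and 95.95% in trio A and 55.3% in trio B near si:dkey-28g23.3. Near gsc, the homeobox gene goosecoid of the embryonic organizer, the males differed more, with 96.8%, 65.3% and 61.5% in G4* male 1, G4* male 3 and G4+ male 1, and 49.9%, 0% and 54.2% in G4* male 2, G4+ male 2 and G4+ male 3. For crip1, a small LIM domain protein, both were at lower levels, with 62.6% in trio A and 19.9% in trio B. The remaining named genes were si:dkey-182i1.1, si:dkey-206p8.1, si:ch211-207n2.7, tiam2a and ttc7b, with differences between 38.2 and 53.5 percentage points. In some of these windows the trios barely separated. At ttc7b, G4* male 3 of trio A had 70.4% and G4+ male 3 of trio B 69.3%. At si:dkey-182i1.1, G4* male 1 of trio A had 57.3% and G4+ male 3 of trio B 55.8%. For si:dkey-182i1.1 the interval that gives the gene lies 135119 bp from it, the farthest of the named genes.

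**Figure D4:**
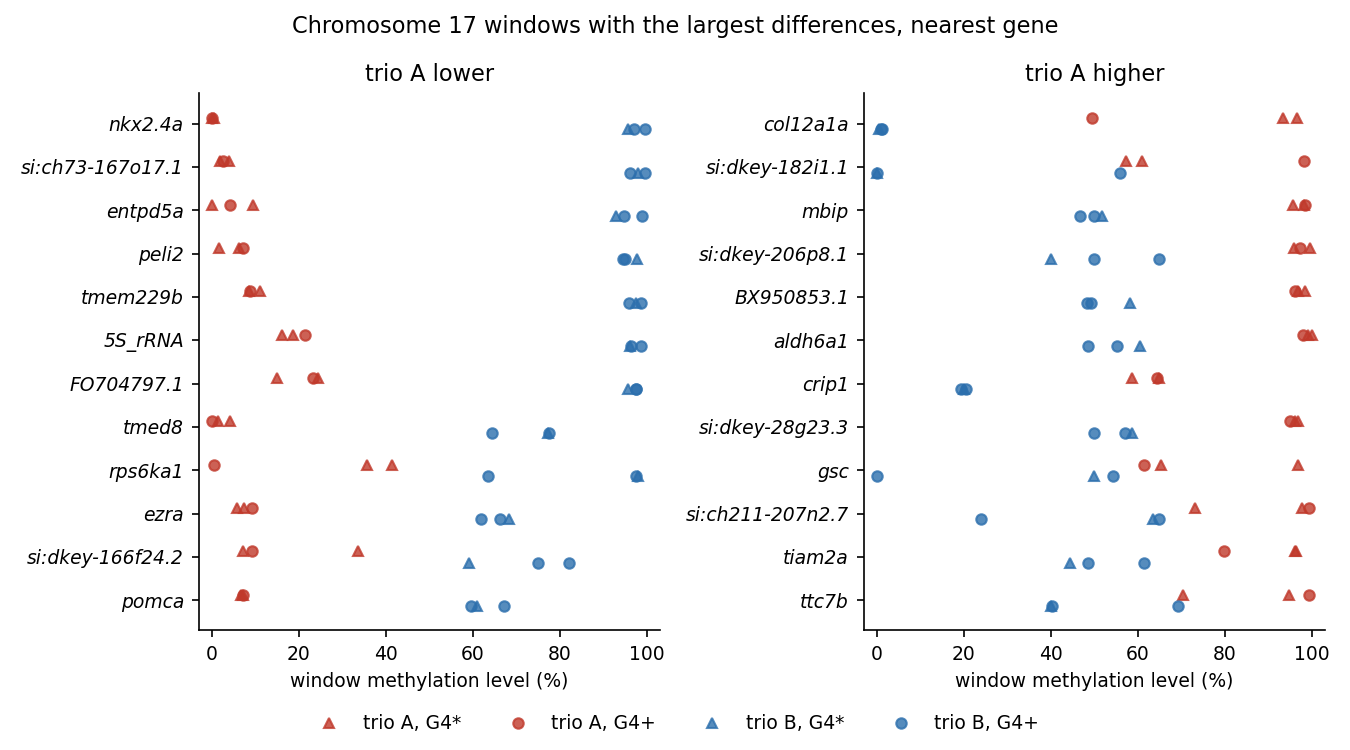
Methylation level of the 12 windows with the largest differences in each direction, 1 per gene, in the 6 G4 males. Red symbols are trio A and blue symbols trio B, triangles G4* and circles G4+ males. The colours do not overlap in any window. They lie far apart at nkx2.4a (0% to 0.481% against 95.6% to 99.5%) and nearly touch at ttc7b (70.4% and 69.3%). Triangles and circles are mixed.

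Transcription factor genes of development, listed by their symbols, were given 765 windows for 15 genes on chromosome 17. The trios were apart in 6 of these windows (0.784%, against 1.45% of all windows of the chromosome), all lower in trio A, near nkx2.4a (2 windows), sox11a (3 windows) and pax9 (1 window). The median difference was −0.384 percentage points over the list and −0.284 over the chromosome. In pax9, a gene of the pharyngeal pouches (chr17:38289000-38289999, 15 CpGs), G4* male 1, G4* male 3 and G4+ male 1 had 0%, 0.32% and 4.29%, and G4* male 2, G4+ male 2 and G4+ male 3 had 51.1%, 38.4% and 54.2%. In one window assigned to sox11a, a gene of neural development, the levels were 57.2%, 44.4% and 6.73% in G4* male 1, G4* male 3 and G4+ male 1, and 94.6%, 97.5% and 74.5% in G4* male 2, G4+ male 2 and G4+ male 3. No window near foxn3, meis2a, runx2a or the other 9 genes of the list was apart. The list rests on symbol prefixes and leaves out other homeobox genes with windows apart. Such windows, picked after their values were seen, were assigned to gsc (differences of −40.4 and 39.9 percentage points), hmx3a (−53.3 and −25.9) and vax1 (−37.4). At the gsc window with −40.4, the interval lies 68229 bp from the gene. At the hmx3a window with −53.3 the trios barely separated, with 53.8% in G4* male 3 of trio A and 55.2% in G4+ male 3 of trio B. Outside the list, and chosen after its values were seen, a window assigned to bcl11ba, whose counterpart Bcl11b is needed for T cell development in mice, had 43.9%, 47.2% and 44.9% in G4* male 1, G4* male 3 and G4+ male 1, and 99.1%, 97.4% and 99.3% in G4* male 2, G4+ male 2 and G4+ male 3. Its interval lies 21828 bp from the gene.

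The comparison of the study itself, G4* against G4+ males, was tested across the genome with limma, using logit-transformed window levels, and a window was called at an FDR under 5% with a difference of at least 20 percentage points. No window of chromosome 17 was lower and none higher in G4* sperm, whereas 114 windows (0.0149%) were lower and 56 (0.00734%) higher over the genome. The genome-wide calls numbered 0 in 8 of 11 alternative fits: with a logit offset of 0.001, with the replicate number as a block and without each of the 6 males in turn. At an unadjusted p under 0.05, limma found 1426 of 30111 windows of chromosome 17, or 4.74%, against 5.59% over the genome. Of the 438 windows apart, 4 (0.913%) were among them. This number was 102 (23.3%, against 6.79% of the chromosome) without G4* male 2 and 106 (24.2%, against 5.64%) without G4+ male 1. It was 57 (13.0%, against 5.08%) with the replicate number as a block. Without G4* male 1, G4* male 3 or G4+ male 3 it was 0, against 4.00% to 4.30% of the chromosome. These windows were chosen on the levels of the same males, so their counts follow from the choice and test nothing. The trios and the phenotype groups share males, so a window in which trio A and trio B differ has a large spread within G4* and within G4+. None of the 243 deposited G4 DMRs lies on chromosome 17, which carries 8296 of the 224130 deposited G2 DMRs.

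G2 sperm and whole bodies played no part in the choice of the split. In G2 sperm, limma called 17333 of 24466 windows of chromosome 17 lower in dnmt1m/m than in dnmt1+/+ males (70.8%, against 71.4% over the genome) and 0 higher (0.0179% over the genome). No other tool was run, and 23357 windows of the chromosome (95.5%, against 95.7% over the genome) had an unadjusted p under 0.05. The chromosome thus lost methylation in mutant sperm to the extent of the genome. Of the windows apart between the G4 trios, 297 could be measured, and 230 of them (77.4%) were lower in dnmt1m/m sperm, 199 of 254 where trio A was lower and 31 of 43 where it was higher. Among the other windows of the chromosome the share was 69.8%. The median difference was −33.0 percentage points at the windows apart and −25.2 at the others. In whole body, 12427 of 15186 windows were lower in dnmt1m/m fish (81.8%, against 81.7% over the genome) and 0 higher (0.0062% over the genome), with 14694 at an unadjusted p under 0.05 (96.8%, against 97.1% over the genome). There, 144 of 190 windows apart were lower (75.8%), against 81.6% of the others. Whether these shares differ was not tested.

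On average, the windows apart were also less methylated than the others in wild-type G2 sperm and whole body. At windows lower in trio A, single G2 males averaged 32.4%, 46.3% and 46.7% in dnmt1m/m and 73.7%, 71.4% and 77.3% in dnmt1+/+ sperm. At windows higher in trio A, they averaged 47.2%, 66.9% and 50.2% in dnmt1m/m and 83.4%, 88.7% and 77.8% in dnmt1+/+ sperm. At the other windows of the chromosome the means were 60.1%, 71.6% and 69.6% in dnmt1m/m and 92.5%, 92.5% and 92.3% in dnmt1+/+ sperm. In each class the dnmt1+/+ males lay above the dnmt1m/m males. At the windows apart the means of both genotypes lay below those at the other windows. The medians over windows of dnmt1+/+ sperm were 89.1% where trio A was lower, 96.0% where it was higher and 97.5% at the other windows. By medians, the windows higher in trio A were thus nearly as methylated as the others. In whole body, the means at windows lower in trio A were 43.5% ± 0.526 in dnmt1m/m and 71.9% ± 1.63 in dnmt1+/+ fish (SD, n = 3 each). At the other windows of the chromosome they were 54.8% ± 0.106 in dnmt1m/m and 82.3% ± 0.217 in dnmt1+/+ fish (SD, n = 3 each).

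**Figure D5:**
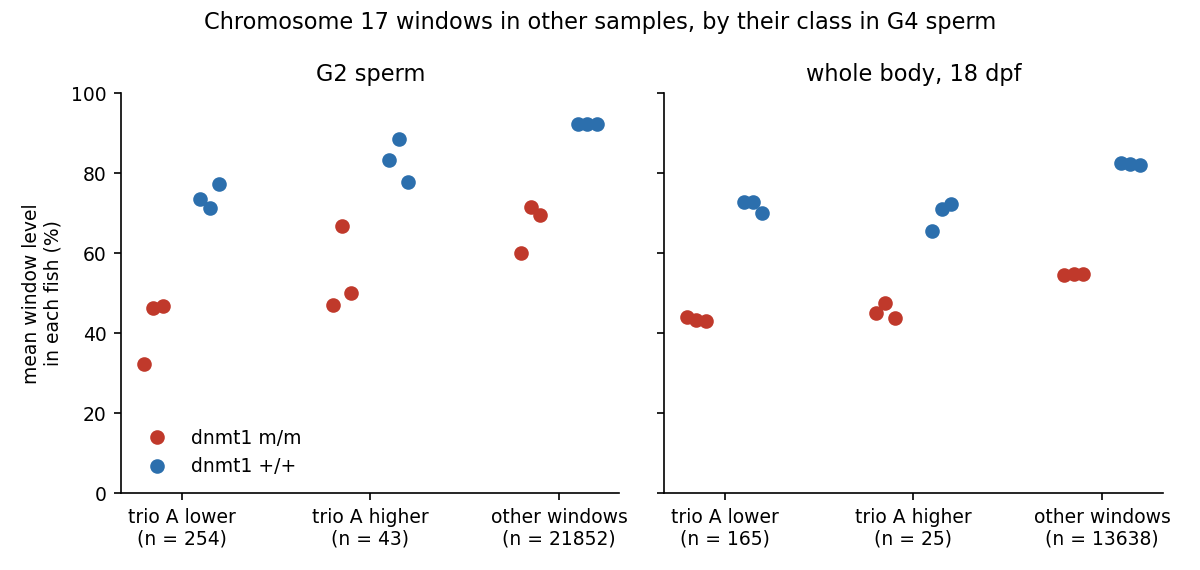
Mean level over the chromosome 17 windows in each fish of G2 sperm (left) and whole body (right), with dnmt1m/m in red and dnmt1+/+ in blue. Windows are grouped by their class in G4 sperm, and n is the number of windows with a value. In G2 dnmt1+/+ males the means are 71.4% to 77.3% where trio A was lower, 77.8% to 88.7% where it was higher and 92.3% to 92.5% at the other windows.

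A part of the same windows also varied between wild-type fish outside the G4 generation. The 3 G2 dnmt1+/+ males ranged over at least 20 percentage points in 65 of the 297 windows apart (21.9%), in 195 of 21852 other windows of chromosome 17 (0.892%) and in 0.728% of windows over the genome. The whole bodies of the 3 dnmt1+/+ fish did so in 41 of 190 windows apart (21.6%), in 1.53% of the other windows and in 1.45% over the genome. Windows near full methylation leave little room to vary, and 50.2% of the windows apart, but 90.4% of the others, averaged at least 90% in G2 dnmt1+/+ sperm. Among windows with a G2 dnmt1+/+ mean of at least 20% and under 90%, the range reached 20 percentage points in 55 of 119 windows apart (46.2%) and in 174 of 1291 others (13.5%). This mean is over the same 3 males, so a window can enter the class because 1 male deviates. Levels within the class were not matched, so the comparison does not remove the part of the level. Over all methylation levels, the share at the windows apart was 12.8% without dnmt1+/+ male 2 and 11.8% without dnmt1+/+ male 3, against 0.375% and 0.43% at the other windows. In the other direction, 65 of the 260 chromosome 17 windows that varied between G2 dnmt1+/+ males were apart between the G4 trios (25%), against 1.34% of all 22149 windows measured in both. In whole body the number was 41 of 249 (16.5%), against 1.37% of all 13828 windows measured in both. These are counts of windows on 1 chromosome, which are not independent of each other. The 799 windows that vary in G4 sperm without being apart belong, where measured, to the other windows and were not counted separately. Whether such variation is particular to the windows apart was therefore not examined.

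The wild-type G2 males were more often near the higher of the trios. At windows lower in trio A, all 3 dnmt1+/+ males were closer to trio B in 149 of 254 windows and all 3 closer to trio A in 56, while the males were divided in 49. Of the 12 genes with the largest difference in this direction, nkx2.4a, si:ch73-167o17.1, peli2, FO704797.1, si:dkey-166f24.2 and pomca had that window measured in G2 sperm. There, unlike at most windows, all 3 dnmt1+/+ males were closer to trio A. The median of trio B at windows lower in trio A was 95.6%, and that of dnmt1+/+ sperm at the other windows 97.5%. Closeness to trio B is thus also closeness to the usual level of the chromosome. At windows higher in trio A, all 3 were closer to trio A in 32 of 43 windows and none of the 43 had all of them closer to trio B. As an example of a divided window, that near BX950853.1 (chr17:33966000-33966999) rested on 20 CpGs in G4 sperm, 18 in G2 sperm and 7 in whole body. It was at 1.34%, 76.6% and 2.21% in G2 dnmt1m/m males and at 58.9%, 94.3% and 54.3% in dnmt1+/+ males. In both genotypes one male stood well above the other two. The whole bodies had 15.5%, 11.9% and 22.4% in dnmt1m/m and 3.62%, 50.4% and 9.05% in dnmt1+/+ fish at this window, and the wild-type fish again included one far above the others.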

How the data were processed

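Whole genome bisulfite sequencing gave 36 libraries, 2 kits for each of 18 fish. The authors trimmed reads (cutadapt 1.9.1), mapped them to bisulfite-converted danRer10 (BWA 0.7.12), merged the kits of a fish and set CpGs with low coverage or a variant to missing. The deposited values are fractions of methylated reads per CpG, given here as percent. The authors' DMR tables hold fold changes, p-values and group means, which were not used, only intervals and genes (724 of 776 gene IDs had a symbol in the names table).

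Window means were calculated in Python 3.11.15 and tested in R 4.3.3 with limma 3.58.1, on the logit with an offset of 0.01, over all windows of the 6 fish compared, with calls at a 5% FDR (Benjamini-Hochberg) and 20 percentage points or more. It was tested on simulated data. Windows start at multiples of 1000 in the deposited positions. Genes named are the 12 with the largest difference in each direction, 1 window each, plus any window called between G4* and G4+ sperm (there was none). Genes in the runs of 3 windows were named for the length of the run, and bcl11ba, hmx3a and vax1 after their values were seen. The members, the split and the gene lists were chosen with earlier results of these data known. Each fish is a separate animal, numbered as in the deposited columns. The p-values of limma weigh a difference between groups against the spread between these animals. Sequences are not shown. The alternatives were other limits, window sizes, medians, offsets, untransformed values, a block for the replicate number, and leaving out single fish.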

Additional observations from a re-analysis of the deposited data

How the results depend on the processing

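Trio A stayed the lower one in most windows apart under every alternative run. With at least 10 CpGs per window 138 were lower and 25 higher, with at least 3 CpGs 600 and 86, from 10 points 985 and 131, from 30 points 171 and 30, and with windows of 2 kb 253 and 29. Without windows holding a CpG that lacks a value in one trio only, 30 were higher, and without the stretch from 36 to 52 Mb (chosen after seeing the data) 244 were lower and 19 higher. With each male left out in turn, 373 to 469 were lower and 57 to 71 higher, but fewer males make the condition of no overlap easier to meet. At least 10 CpGs left 13898 windows of chromosome 17 instead of 30111. The other chromosomes were not counted under these alternatives, so the excess of chromosome 17 over the genome was examined at the main setting only. The 43 bins became 18 with at least 10 windows per bin, 14 with at least 10 CpGs, and 42 to 45 with each male left out.

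Between G4* and G4+ sperm, limma called 0 windows of chromosome 17 under each of 11 alternatives. At an unadjusted p under 0.05 there were 658 to 2045 windows (3.87% to 6.79% of those tested, against 4.65% to 5.71% over the genome). In 8 of the 11 alternatives 0 windows were called over the whole genome as well. In G2 sperm 5400 windows were lower with at least 10 CpGs, 5 were higher without a minimum difference, and with each fish left out 14119 to 18595 were lower and 0 to 2 higher. In whole body these numbers were 2894, 3, 12265 to 12377, and 0 to 1. In G4 sperm, deviations from the group mean correlated at 0.0494, 0.14 and 0.0116 between same-numbered males of the G4* and G4+ groups. Between males of different numbers the correlations lay from −0.0991 to 0.0478. Whether the numbers pair the fish is not known. With the replicate number as a block, 0 windows were called in G4 sperm. In G2 sperm 17349 were lower (70.9%, against 71.5% over the genome) and in whole body 12427 (81.8%, against 81.7%).

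The share of windows apart that varied between G2 dnmt1+/+ males was 34.3% from 10 points, 46.2% at intermediate levels and 11.8% to 18.2% with each male left out (the last 2 chosen after seeing the data). CpGs lacking a value in one trio only were 692 per 10000 when 2 of 3 males sufficed, and 381 to 428 with each male left out. Depth per CpG is unknown, and windows without 5 shared CpGs were not measured.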
